A study of Mus musculus with 10 samples.

Results

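The Ret gene, 4 genes for GDNF family co-receptors (Gfra1, Gfra2, Gfra3 and Gfra4) and 3 genes for GDNF family ligands (Gdnf, Nrtn and Artn) were examined in mouse neuroblastomas. They were found by the gene name that the array gives its probes: 10 of the 55681 distinct probes carried 1 of the 8 names, 3 of them for Gfra4 and 1 for each of the others. Gene expression had been measured in untreated neuroblastomas of 10 mice. In the ALK/MYCN group 5 tumours came from mice heterozygous for an ALK transgene with the F1174L mutation and for a MYCN transgene, on a C57BL/6 x 129X1/SvJ background. In the MYCN group 5 tumours came from mice heterozygous for the MYCN transgene only, on a 129X1/SvJ background. All tumours therefore carried the MYCN transgene. Because the groups also differ in mouse background, the effect of mutant ALK cannot be told apart from that of the background. The labels name neither the promoter that drives a transgene nor the age of the mice. The RNA of each tumour, labelled with Cy3, was hybridised to 1 Agilent array together with Universal Mouse Reference RNA, a Cy5-labelled pool of 11 cell lines, and a level below is the log2 ratio of tumour over reference.

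RET is a receptor tyrosine kinase that does not bind its ligands alone. Each ligand of the GDNF family first binds a GPI-anchored co-receptor of the GFRA family, which then brings RET molecules together: GDNF prefers GFRA1, neurturin GFRA2, artemin GFRA3 and persephin GFRA4. The system guides migration, survival and axon growth of neural crest derivatives, among them enteric neurons, and of sympathetic neurons in which RET with GFRA3 responds to artemin; neuroblastoma arises in the sympathetic lineage.

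The sequences printed here are those of the array's own oligonucleotides, because every value rests on how much labelled RNA bound to them. The Ret and Artn probes are given by their first 30 bases, since these are 2 of the 3 members past the threshold, and the Gfra4 probes in full, since Gfra4 was read at 3 positions of its transcript. No base is set in capitals.
Ret: ccataccgtgttgacttgtttttgtaatca
Artn: atatatacatatatacattgtagtcgcgtt
Gfra4 A_55_P2039196: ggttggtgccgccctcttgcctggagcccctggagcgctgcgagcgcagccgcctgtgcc
Gfra4 A_55_P1984119: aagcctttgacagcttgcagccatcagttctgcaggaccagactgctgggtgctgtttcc
Gfra4 A_55_P1984118: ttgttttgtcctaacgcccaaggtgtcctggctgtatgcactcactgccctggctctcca
On build mm9 these probes lie on the minus strand at chr6:118101791-118101850 (Ret), chr4:117598825-117598884 (Artn), chr2:130867132-130867191 (A_55_P2039196), chr2:130866140-130866199 (A_55_P1984119) and chr2:130865957-130866016 (A_55_P1984118). The Ret probe starts at base 7256 and the Artn probe at base 2059 of the transcript for which the array lists it. The Gfra4 probes start at bases 376, 694 and 804. The 60 bases of the Ret probe hold 35.0% G and C, against 75.0% in Gfra4 probe A_55_P2039196 and 55.0% in the other Gfra4 probes. Signals of different probes are therefore not set against each other as levels, and only the difference between the groups is compared.

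Ret, Gfra3 and Artn were higher in ALK/MYCN tumours, and no member was lower. Of the 8 genes, 6 were tested, because the tumour channel of their probe stood well above background on 5 or more of the 10 arrays. Of all 22234 genes tested, 14.2% were higher and 12.2% lower in ALK/MYCN tumours at an adjusted p of 0.05 (limma with Benjamini-Hochberg adjustment over all genes). With so few members the 3 calls are listed as values only. Artn passed the filter through the ALK/MYCN arrays, so its call is not independent of the filter. In bulk tumours, fewer cells of a type and less RNA per cell cannot be told apart.

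**Figure D1:**
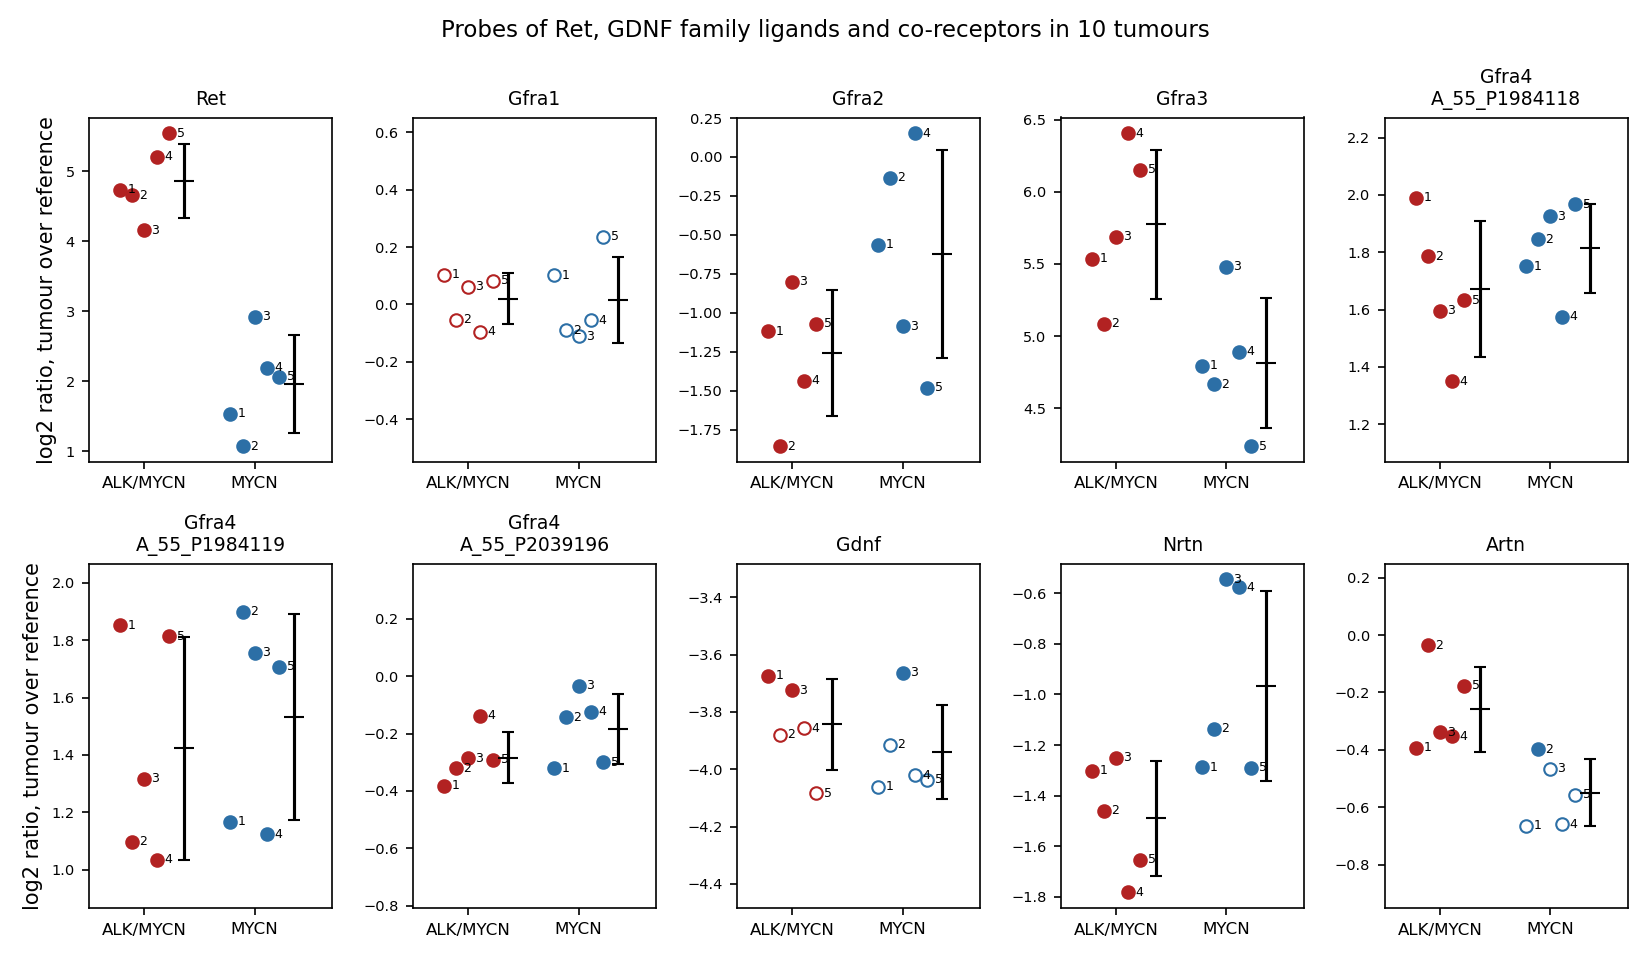
Log2 ratio of tumour over reference for each of the 10 probes, with the y axis scaled separately in each panel. Points are tumours with their replicate number, filled where the probe was well above background in Cy3, and bars are mean and SD of the 5 tumours of a group. Ret separates the groups by the widest margin, Artn separates them by a narrow one, and the groups overlap for the 8 other probes.

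The receptor gene Ret had the largest difference of the members. Its log2 ratio was 4.74, 4.66, 4.16, 5.21 and 5.55 in ALK/MYCN tumours 1 to 5. In MYCN tumours 1 to 5 it was 1.54, 1.08, 2.92, 2.20 and 2.07. The lowest ALK/MYCN tumour, number 3, lay above the highest MYCN tumour, also number 3, so the groups did not overlap; over the array 20% of the tested genes had no overlap (11.3% with ALK/MYCN above, as for Ret, and 8.61% with it below).

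Ret averaged 4.86 ± 0.53 with the ALK transgene and 1.96 ± 0.70 without it (SD, n = 5 each), a rise of 2.90 ± 0.35 (SE, limma adjusted p = 7.09e-04). This was the 13th largest rise among the 22234 genes. On the 3 slides that held the arrays, the difference was 3.12, 2.51 and 3.52. The call was kept without any single tumour, with differences between 2.68 and 3.14.

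The reference RNA gave no Ret signal well above background on any of the 10 arrays. The ratio therefore has a denominator at background level. In the tumour channel the scanner-processed Cy3 intensity of Ret was 2497, 1935, 1474, 3832 and 3336 in ALK/MYCN tumours. It was 237, 100.4, 529, 274 and 288 in MYCN tumours, in each of which it was well above background. The ratio of the group means was 9.15. Ret RNA was thus measured in all 10 tumours, and with Cy3 alone the difference was 2.96 (limma adjusted p = 0.0004515).

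**Figure D2:**
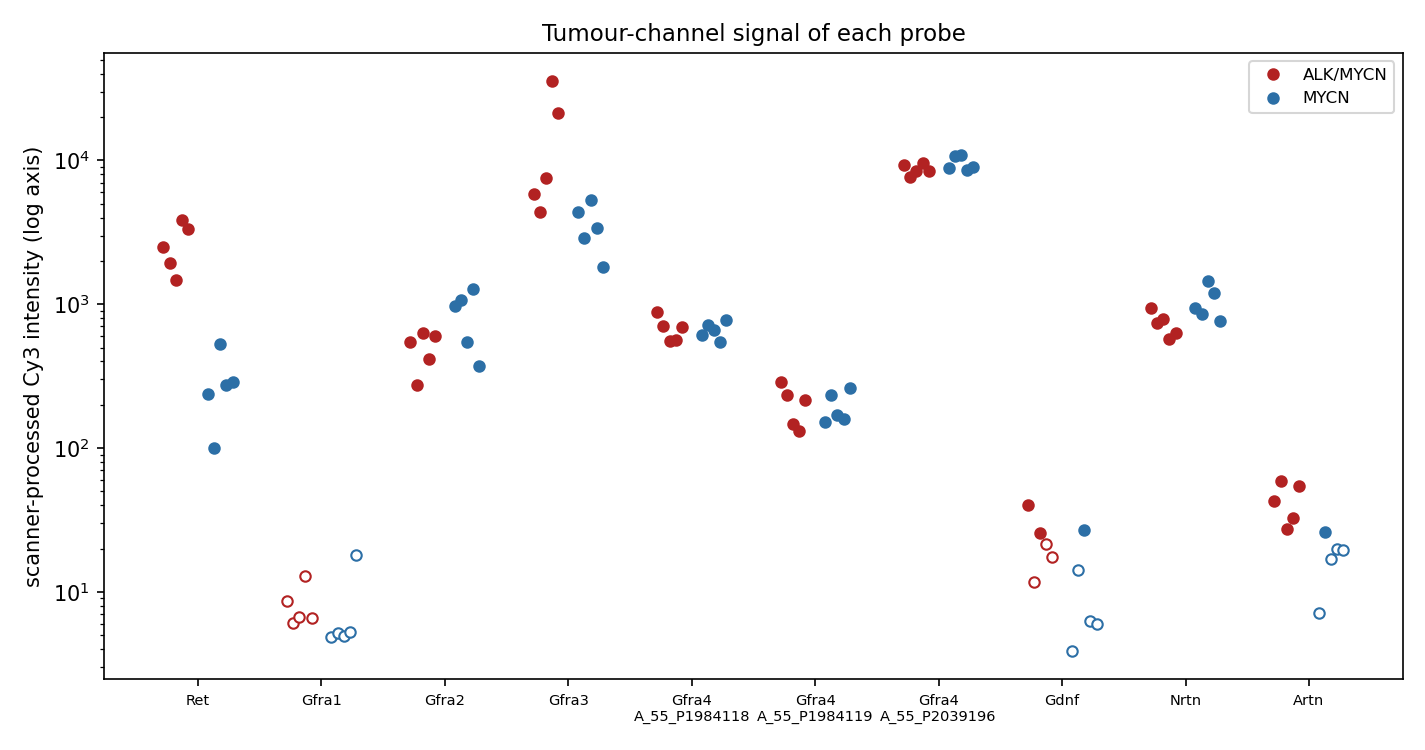
Scanner-processed Cy3 intensity, the tumour channel, of each probe on a log axis, with 1 point per tumour in replicate order; open points were not well above background. Ret spans 100.4 to 529 without and 1474 to 3832 with the ALK transgene, Gfra3 is brightest in ALK/MYCN 4 and 5, and Gfra1, Gdnf and Artn lie near background.

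Among the co-receptors, Gfra3, which binds artemin, was higher in ALK/MYCN tumours, with overlap. Its log2 ratio was 5.54, 5.09, 5.69, 6.41 and 6.15 in ALK/MYCN tumours 1 to 5. In MYCN tumours 1 to 5 it was 4.796, 4.66, 5.48, 4.89 and 4.24. MYCN 3 lay above ALK/MYCN 2, and the other MYCN tumours lay below every ALK/MYCN tumour. The means were 5.77 ± 0.52 and 4.81 ± 0.45 (SD, n = 5 each), a rise of 0.96 ± 0.28 (SE, limma adjusted p = 0.0292). The probe lies on chromosome 18 from 34849560 to 34849619 (mm9, minus strand).

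The Gfra3 difference depended on the channel and on single tumours. The Cy3 intensity was 35379 in ALK/MYCN 4 and 21236 in ALK/MYCN 5, against 4366 to 7543 in the other ALK/MYCN tumours and 1809 to 5262 in MYCN tumours. The Cy5 intensity, which comes from the same reference RNA on every array, was also highest on those 2 arrays, at 329 and 222, against 28.5 to 79.2 on the other 8. What raised it was not tested. With Cy3 alone the difference was 1.58 (limma adjusted p = 0.0521), and with the scanner-processed ratio it was 0.39 (limma adjusted p = 0.160). The call was also lost with slide as a block (adjusted p = 0.0692), after scaling of the arrays (adjusted p = 0.139), and on leaving out tumour 4 or 5 of the ALK/MYCN group or tumour 1, 2 or 5 of the MYCN group (limma adjusted p between 0.0520 and 0.0710). Slides 1, 2 and 3 gave differences of 0.29, 0.98 and 1.36.

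Gfra2, the co-receptor for neurturin, did not pass. Its log2 ratio was -1.12, -1.86, -0.80, -1.44 and -1.07 in ALK/MYCN tumours 1 to 5. It was -0.56, -0.13, -1.09, 0.15 and -1.48 in MYCN tumours 1 to 5. MYCN 3 and MYCN 5 lay within the ALK/MYCN range, while the other MYCN tumours lay above it. The difference was -0.63 ± 0.31 (SE, limma adjusted p = 0.164), with a 95% interval from -1.33 to 0.06. The probe lies on chromosome 14 from 71379586 to 71379645 (mm9, plus strand).

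Connective tissue markers were highest in the tumours with the highest Gfra2, but did not follow Gfra2 in every tumour. Averaged after subtraction of each gene's mean, 10 fibroblast markers stood at 2.31 in MYCN 4 and at 1.44 in MYCN 2, which had the highest Gfra2. Their average was -0.35 in MYCN 5, which had the lowest Gfra2 of that group. It was 1.04 in MYCN 3, where Gfra2 was low, and -1.76 in MYCN 1, where Gfra2 was in the middle of the group. With a stromal covariate, averaged from the markers of fibroblasts, endothelium and macrophages, the Gfra2 difference was -0.28 (limma adjusted p = 0.641). Beyond that fit, the part of these cells in the result was not tested.

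Gfra4, the co-receptor for persephin, did not differ beyond the spread at any of its 3 probes. Probe A_55_P2039196, nearest the start of the transcript, averaged -0.28 ± 0.09 with the ALK transgene and -0.18 ± 0.12 without it (SD, n = 5 each). The groups differed by -0.10 ± 0.08 (SE, limma adjusted p = 0.364). Its 95% interval ran from -0.27 to 0.07. The other probes, fitted among all 30857 probes tested, of which 24.9% were called in either direction, differed by -0.11 ± 0.21 for A_55_P1984119 and -0.14 ± 0.12 for A_55_P1984118 (SE, limma adjusted p = 0.749 and 0.425). Between these probes the tumours were ordered differently: ALK/MYCN 1, for example, was the lowest of the 10 at A_55_P2039196 and the highest at A_55_P1984118. With the arrays centred on spike-in control spots all 3 differences were above 0 and none passed.

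Gfra1, the co-receptor for GDNF, was not well above background on any array in either channel, so that no fold is given. Cy3 intensities lay between 6.09 and 12.9 with the ALK transgene and between 4.85 and 18.2 without it. The probe lies on chromosome 19 from 58311604 to 58311663 (mm9, minus strand), and other parts of the transcript were not probed under that name.

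Of the ligand genes, Artn, which encodes the GFRA3 ligand artemin, was higher in ALK/MYCN tumours at a low signal. Its log2 ratio was -0.39, -0.04, -0.34, -0.35 and -0.18 in ALK/MYCN tumours 1 to 5. In MYCN tumours 1 to 5 it was -0.66, -0.40, -0.47, -0.66 and -0.56. The lowest ALK/MYCN tumour, number 1, and the highest MYCN tumour, number 2, lay side by side without overlap. The difference was 0.29 ± 0.09 (SE, limma adjusted p = 0.0362).

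The size of the Artn difference is uncertain. Cy3 intensities lay between 27.4 and 58.9 with the ALK transgene and between 7.18 and 26.1 without it. The probe was well above background on all 5 ALK/MYCN arrays and only on that of MYCN 2 in the other group. The scanner-processed ratio, with no offset added, gave a difference of 1.19 (limma adjusted p = 0.0258), and an offset of 16 in place of 50 gave 0.47 (limma adjusted p = 0.0224). With spike-in centring it was 0.55. Artn did not pass on leaving out tumour 2 or 5 of the ALK/MYCN group or tumour 1, 3, 4 or 5 of the MYCN group (limma adjusted p between 0.0506 and 0.0842). Nor did it pass once the stromal covariate was in the model (limma adjusted p = 0.0656) or when dim probes were kept (limma adjusted p = 0.0505).

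Nrtn, which encodes neurturin, had a log2 ratio of -1.30, -1.46, -1.25, -1.78 and -1.65 in ALK/MYCN tumours 1 to 5. In MYCN tumours 1 to 5 it was -1.29, -1.14, -0.55, -0.58 and -1.29. MYCN 3 and MYCN 4 stood above the rest, and MYCN 1 and MYCN 5 lay within the ALK/MYCN range. The difference of -0.52 ± 0.18 narrowly missed the threshold (SE, limma adjusted p = 0.0562), and it passed without MYCN 1 or without MYCN 5 (limma adjusted p = 0.0438 and 0.0436). With the stromal covariate it was -0.27 (limma adjusted p = 0.368). The probe lies on chromosome 17 from 56890748 to 56890807 (mm9, minus strand).

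Gdnf, the ligand gene that names the family, was close to background in the tumours. It was well above background in ALK/MYCN 1, ALK/MYCN 3 and MYCN 3, with Cy3 intensities of 40.2, 25.6 and 26.8, and not in the 7 other tumours, which lay between 3.90 and 21.4. The cell-line reference, by contrast, gave Gdnf a signal well above background on all 10 arrays, between 938 and 1193. The log2 ratio averaged -3.84 ± 0.16 with the ALK transgene and -3.94 ± 0.16 without it (SD, n = 5 each), with most tumour values at background level. The probe lies on chromosome 15 from 7787474 to 7787533 (mm9, plus strand).

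The change of Ret exceeded that of each other tested member within the same array. This comparison subtracts the log2 ratio of 1 member from that of Ret on each array and therefore does not depend on how arrays are centred. Between the groups Ret changed by 1.94 more than Gfra3, 2.61 more than Artn, 3.00 more than Gfra4, 3.42 more than Nrtn and 3.54 more than Gfra2. In each of these 5 comparisons the groups did not overlap, and each had the smallest two-sided p that an exact permutation of 5 against 5 tumours can give (0.00794), which adjustment over the 5 leaves as it is. All 5 share Ret, which by itself separated the groups, so they are not independent results and a small p was likely beforehand. With the scanner-processed ratio Ret changed by 2.86 more than Gfra3 and by 2.06 more than Artn, the latter with a two-sided exact permutation p of 0.0159. With Cy3 alone Ret differed by 2.96 and Gfra3 by 1.58, a smaller gap than by either ratio. Artn was at background in 4 of the 5 MYCN tumours and passed the filter through the ALK/MYCN arrays. Its comparison with Ret is therefore not independent of the filter, and the size is uncertain.

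The genes whose profile over the 10 tumours lay nearest to that of Ret were Mapt, Mycn, Sdk1, Mtus2, Amph and Bean1. Likeness was the mean absolute difference from Ret after each gene's mean over the 10 arrays was subtracted. It was 0.37 for Mapt, the gene of the microtubule protein tau, 0.39 for Mycn and 0.40 for Sdk1, a gene of a cell adhesion molecule. It was 0.41 for Mtus2, 0.42 for the amphiphysin gene Amph and 0.42 for Bean1. All 6 separated the groups, which the choice by profile largely fixes. Bean1 was well above background on only 3 MYCN arrays, so it passed the filter only with the ALK/MYCN arrays. Mycn differed by 2.85 ± 0.35 (SE, limma adjusted p = 7.64e-04); whether the Mycn and Alk probes detect transcripts of the transgenes was not tested. The Alk probe gave 4.35 ± 0.48 and 4.28 ± 0.04 (SD, n = 5 each), and so differed by 0.07 ± 0.20 (SE, limma adjusted p = 0.837). Among the members Gfra3 was nearest to Ret, at 0.97 and in place 523 of 22233 genes, and Gfra2 was farthest, at 1.77 and in place 20403.

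**Figure D3:**
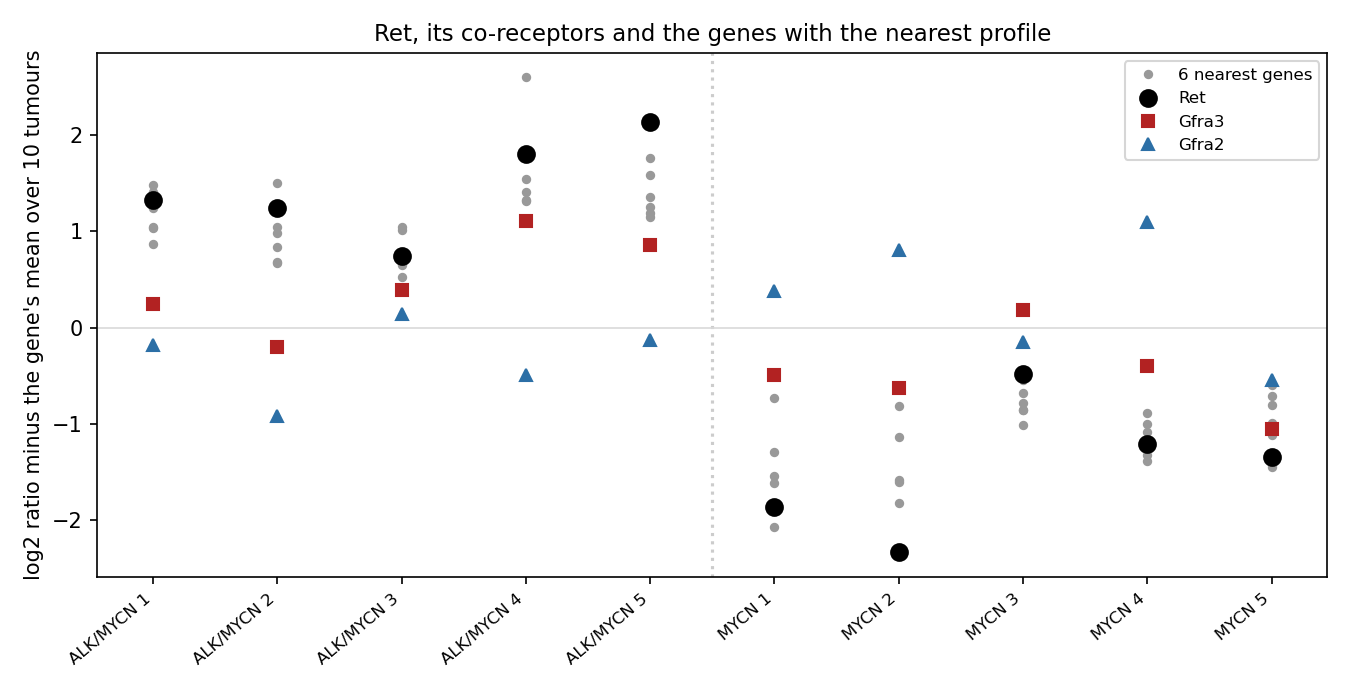
Log2 ratio minus the gene's own mean over the 10 tumours (y axis) in each tumour (x axis) for Ret, Gfra3, Gfra2 and the 6 genes nearest to Ret. Ret and the 6 genes lie above 0 in every ALK/MYCN tumour and below 0 in every MYCN tumour, whereas Gfra3 is above 0 in MYCN 3 and below 0 in ALK/MYCN 2.

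Other ligands, co-receptors and modulators of RET moved in both directions. Of 8 such genes 6 were tested, and 2 rose and 2 fell, against 14.2% and 12.2% of all genes. The median difference was -0.41 against -0.004 over all genes. Ncam1, whose product can act as a GDNF receptor without RET, rose by 0.86 ± 0.12, and Sdc3, for the heparan sulphate proteoglycan syndecan 3, by 0.40 ± 0.11 (SE, limma adjusted p = 0.00121 and 0.0224). With the mean over its probes in place of the brightest one Ncam1 rose by 0.53. Without ALK/MYCN 5 Sdc3 did not pass (limma adjusted p = 0.0572). Gdf15, the ligand of the distant family member GFRAL, fell by 1.05 ± 0.20, and Lrig3, a paralog of the RET inhibitor gene Lrig1, by 0.96 ± 0.24 (SE, limma adjusted p = 0.00510 and 0.0167). Lrig3 lost its call with the stromal covariate (-0.53, limma adjusted p = 0.117) and with slide as a block (limma adjusted p = 0.0561). Lrig1 itself was at -0.02 ± 0.40 and Gas1, of a GFRA-like protein, at -0.79 ± 0.46, and neither passed. The ligand gene Pspn and the receptor gene Gfral were not above background on 5 arrays and were not tested.

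Among adaptors and direct signalling partners of RET more genes were higher than lower. Of 26 genes 24 were tested, 9 rose and 1 fell (14.2% and 12.2% over all genes), with a median difference of 0.21. Spike-in centring moves all genes upward, adaptors included: the median of all genes was 0.25 with it, against -0.004 with the main centring. With it 14 adaptors were higher and 1 lower, beside 8829 and 831 of all 22234 genes. With the main centring 4 to 7 adaptors rose when 1 tumour was left out, beside 2357 to 2946 of all genes. With slide as a block 4 rose, beside 2477 of all genes. Without the 4 tumours that held markers of other tissues (ALK/MYCN 3 and MYCN 1, 2 and 5) 0 rose and 3 fell. In that fit 1491 of all genes were higher and 2003 lower. Shc1, for the adaptor that links receptors to Ras, rose by 1.04 ± 0.22, Frs2, for a docking protein of RET and FGF receptors, by 0.36 ± 0.08, and Grb2 by 0.38 ± 0.10 (SE, limma adjusted p = 0.00901, 0.00798 and 0.0200). Shc3, the neuronal member of the SHC genes, is 1 of the 9, but it had no signal well above background in the MYCN group and passed the filter only through the ALK/MYCN arrays, so no fold is given. Its call was lost when slide was a block (limma adjusted p = 0.0515) or with the stromal covariate (limma adjusted p = 0.110). Pdlim7, whose product binds RET at its carboxy terminus, fell by 0.96 ± 0.16 (SE, limma adjusted p = 0.00281). The phosphatase gene Ptpn11, at 0.05 ± 0.06, and Gab1, at -0.04 ± 0.16, did not pass.

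Of 7 genes tied to removal or dephosphorylation of RET, 6 were tested. Of these 3 rose and 1 fell (14.2% and 12.2% over all genes), with a median difference of 0.28. Ubash3b, for a phosphatase that binds CBL, rose by 0.84 ± 0.17, the receptor phosphatase gene Ptprf by 0.58 ± 0.09 and the ubiquitin ligase gene Nedd4 by 0.31 ± 0.06. Cd2ap, for a scaffold of CBL and RET, fell by 0.40 ± 0.08. These had limma adjusted p of 0.00684, 0.00184, 0.00643 and 0.00648 in that order. Nedd4 did not pass with Cy3 alone (0.20, limma adjusted p = 0.0953) or with the mean over its probes (0.22, limma adjusted p = 0.112), and Cd2ap did not with spike-in centring (-0.14, limma adjusted p = 0.217). The ubiquitin ligase gene Cbl was at 0.25 ± 0.11 and Cblb at 0.06 ± 0.13, and neither passed.

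Most transcription factor genes known to control Ret did not pass. Of 10 genes 9 were tested, 1 rose and 1 fell (14.2% and 12.2% over all genes), with a median difference of 0.02. Sox10, a factor of neural crest and glia, rose by 1.16 ± 0.16 and Ets1 fell by 0.90 ± 0.24 (SE, limma adjusted p = 0.00114 and 0.0208). Scanner-processed signals took Sox10 to 0.59, without a call (limma adjusted p = 0.112), and Cy3 alone to 1.84. The stromal covariate took Ets1 to -0.40, without a call (limma adjusted p = 0.109). Phox2a, a homeobox factor of the autonomic lineage, was at 0.03 ± 0.07 (SE, limma adjusted p = 0.767). Gata3 was at 0.02 ± 0.28.

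Of 12 genes that GDNF and RET induce in the embryonic ureteric bud, all were tested. Of these 2 rose and 2 fell (14.2% and 12.2% over all genes), with a median difference of 0.001. The ETS factor genes Etv5 and Etv4 rose by 3.68 ± 0.33 and 1.65 ± 0.22 (SE, limma adjusted p = 2.56e-04 and 9.76e-04). Myb, for a transcription factor, fell by 0.83 ± 0.12 (SE, limma adjusted p = 0.00168). The 8 others did not pass, among them Dusp6 at 0.21 ± 0.25, Spry1 at -0.35 ± 0.14, Cxcr4 at 0.09 ± 0.28 and Wnt11 at -0.08 ± 0.21. The list was drawn up for another tissue, with Etv4 and Etv5 already known to be high in these tumours, so it is no independent support for a direction.

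**Figure D4:**
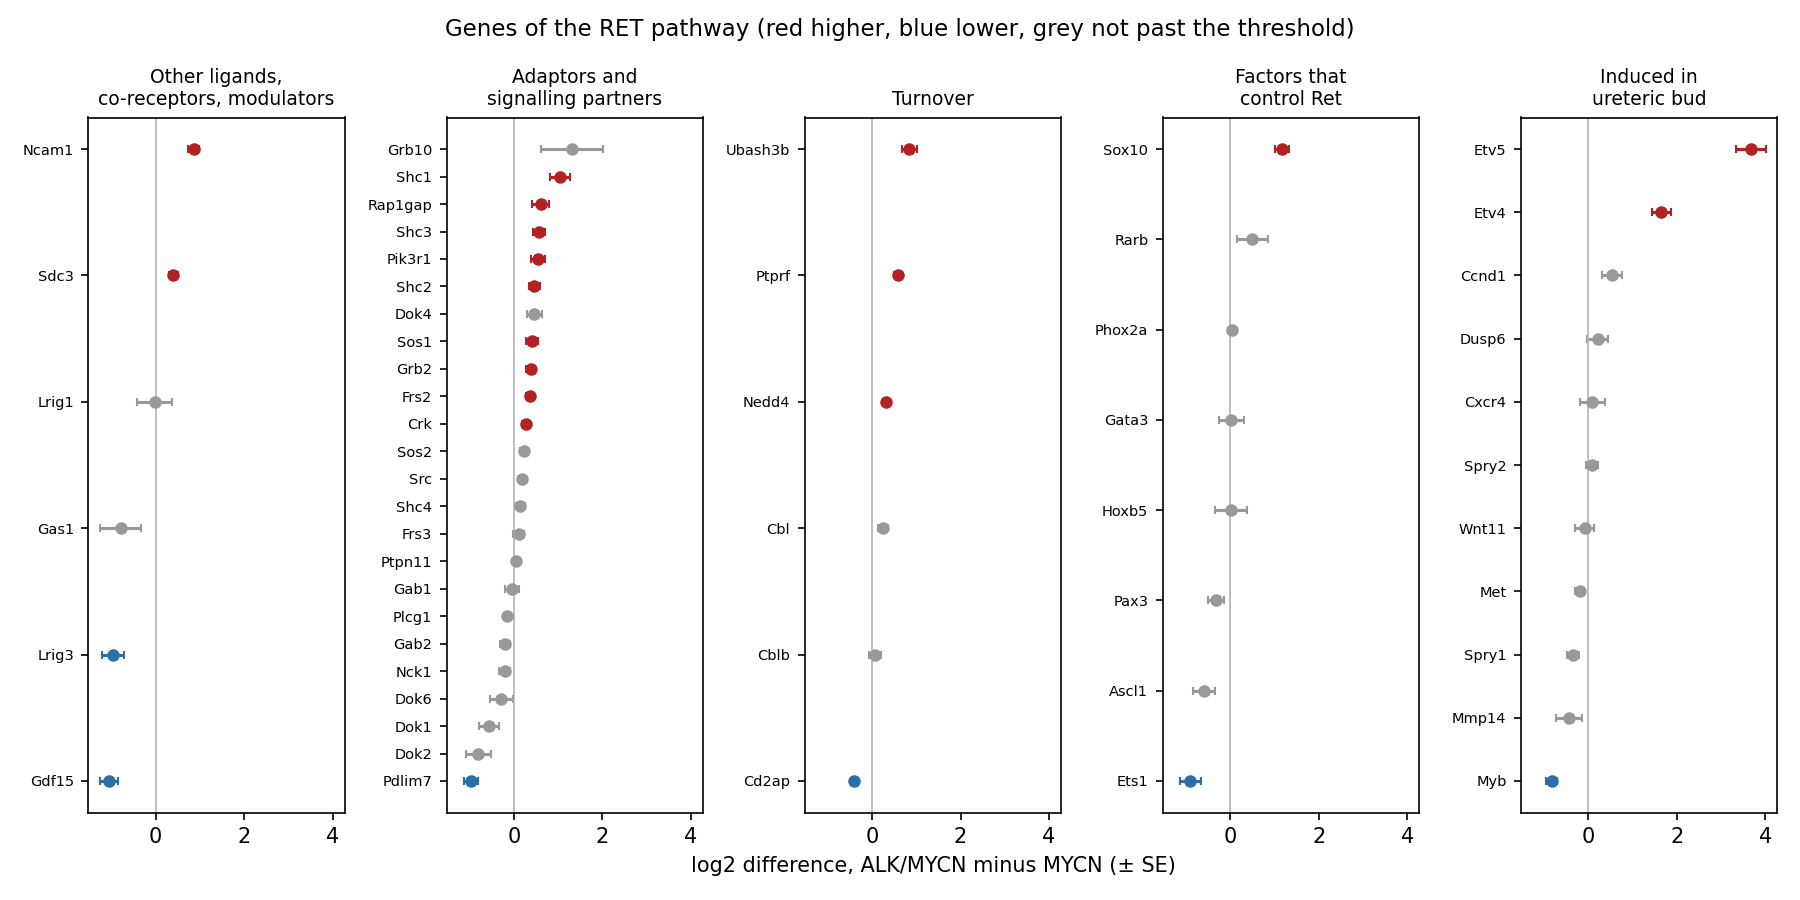
Log2 difference, ALK/MYCN minus MYCN, with its SE for the tested genes of the 5 lists that are reported; red genes were higher and blue genes lower at an adjusted p of 0.05 by limma, and grey genes did not pass. Etv5 at 3.68 has the largest difference of the genes drawn, and 9 of the 24 adaptor genes are red.

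Markers of the tumour cells were present in every tumour. All 12 sympathetic neuroblast markers were well above background on all 10 arrays, and of these 3 were higher and none lower in ALK/MYCN tumours, by limma. Beside the marker counts here, 14.2% of all genes tested were higher and 12.2% lower. Of 10 Schwann cell markers 6 were tested, and 4 were higher in ALK/MYCN tumours and none lower. Among the 4 were Fabp7, Foxd3 and Sox10, the last with a call that depended on the signals used. Fabp7 was well above background on only 4 MYCN arrays and Foxd3 on 2. Both therefore passed the filter of 5 arrays only with the ALK/MYCN arrays. Averaged after subtraction of each gene's mean, the 6 Schwann markers ran from 0.23 to 1.07 in ALK/MYCN and from -0.88 to -0.14 in MYCN tumours. The Schwann genes Erbb3, Cdh19 and Gfap were among those well above background in Cy3 on fewer than 5 arrays and not tested. Of 8 enteric neuron markers 6 were higher and none lower. Among the 6, only Elavl4 was well above background on all 10 arrays. Vip and Chat were so on only 1 MYCN array, Slc18a3 and Prph on 3 and Tlx2 on 4. These markers passed the filter of 5 arrays only with the ALK/MYCN arrays. Endothelial markers, 7 of 10 lower, and macrophage markers, 6 of 9 lower and 1 higher, moved the other way. The part of these cells in the Ret, Gfra3 and Artn results was not tested beyond the stromal covariate, with which Ret differed by 3.05 (limma adjusted p = 0.00388).

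A few tumours held markers of other tissues. The summed Cy3 intensity of 3 adrenal cortex markers was 253438 in ALK/MYCN 3 and at most 392 elsewhere. That of 6 skeletal muscle markers was 483863 in MYCN 2 and 27235 in MYCN 1, against 255 to 1724 elsewhere. That of 4 kidney tubule markers was 64004 in MYCN 5 and at most 611 elsewhere. Without ALK/MYCN 3, MYCN 2 and MYCN 5 the Ret difference was 2.82 (limma adjusted p = 0.00578), while Gfra3, at 0.74, and Artn, at 0.36, did not pass (limma adjusted p = 0.165 and 0.0715). When MYCN 1 was left out as well, which leaves 2 MYCN tumours, Ret differed by 2.48 (limma adjusted p = 0.00598). Gfra3, at 0.61, and Artn, at 0.32, again did not pass (limma adjusted p = 0.329 and 0.156), and Nrtn was lower by this fit, at -0.99 (limma adjusted p = 0.00975).

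**Figure D5:**
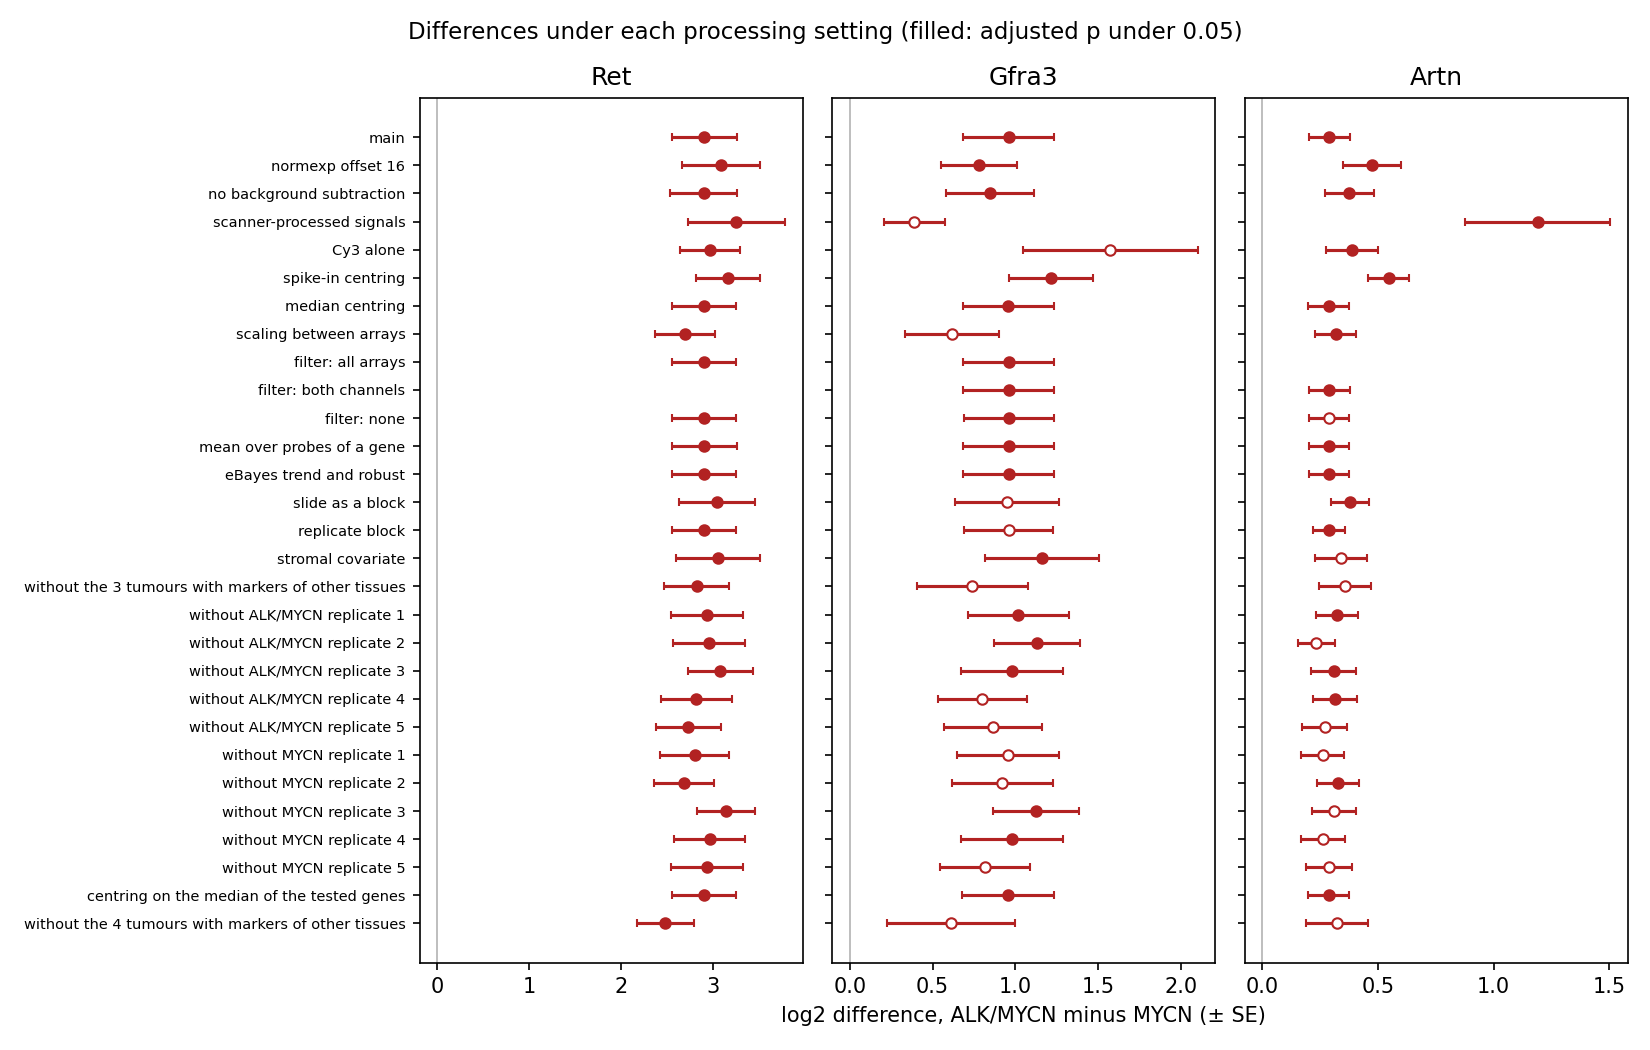
Log2 difference, ALK/MYCN minus MYCN, with its SE (x axis, a separate range per gene) for Ret, Gfra3 and Artn under each processing setting (y axis); filled points had an adjusted p under 0.05 by limma and a missing point means that the probe did not pass that filter. Ret stays between 2.48 and 3.25 and is filled throughout, Gfra3 runs from 0.39 to 1.58 and Artn from 0.23 to 1.19 with filled and open points.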

How the data were processed

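The authors' Cy3 and Cy5 intensities came, per the file headers, from Feature Extraction 10.7.3.1 (Agilent), which places the probes on mm9. The deposited value table holds log2 ratios, which matched log2 of processed Cy3 over Cy5 within 5.01e-04. Flags and other 0 or 1 values were used as deposited. From the deposited mean signals, background was corrected with normexp (offset 50) on the local median, loess was run within arrays with controls at weight 0, outlier spots were set to missing (177 to 345 per array) and no spot was saturated. Well above background in Cy3 were 53.8% to 58.7% of probe spots. Probes above background in Cy3 on at least 5 arrays were kept (30857), with the probe of highest mean intensity for each of 22234 genes. Names came from RefSeq GRCm38.p6 by accession (14153), symbol (840) or synonym (159), and 7082 kept the array's name. The groups were compared by limma 3.58.1 under R 4.3.3 (eBayes, two-sided), a procedure first tested on simulated data. The number of arrays limits the precision. Members and lists were chosen with earlier results of these data known. Named were the members, up to 4 called genes per list with the smallest p and the 6 nearest Ret; further list members were chosen after their values were seen. Slides were read from the files. A few genes of the lists count in their totals but are not reported here by name.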

Additional observations from a re-analysis of the deposited data

Results flagged for a closer look

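In 4 of 68 groups of 5 tumours examined for named probes and genes, 1 tumour stood apart from the others by a gap that took up most of the group's range (Dixon's ratio, 0.711 to 0.758); chance flags about 1 in 20 groups. Amph was at -0.75 in MYCN 2, against 0.59 to 1.04 in the other MYCN tumours. Gdf15 was at -3.54 in ALK/MYCN 2, against -3.80 to -3.74. Shc1 was at 0.25 in ALK/MYCN 4, against -0.78 to -0.53 in the other ALK/MYCN tumours, and at -2.14 in MYCN 1, against -1.52 to -1.27 in the other MYCN tumours. None of the 10 member probes had such a tumour in either group.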

How the results depend on the processing

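Ret kept its call and direction under all 27 alternatives that gave it a value (2.48 to 3.25); the filter on both channels left it out, because the reference gave no signal. Gfra3 lost its call with scanner-processed signals (0.39), Cy3 alone (1.58), scaling between arrays (0.62), slide as a block (0.95) and when the 3 tumours with the highest sums of markers of other tissues were left out (ALK/MYCN 3, MYCN 2 and MYCN 5; 0.74). Artn lost its call with no filter (0.29), with the stromal covariate (0.34) and without those 3 tumours (0.36); the filter on all arrays left it out. Leaving out 1 tumour gave 0.80 to 1.13 for Gfra3, 0.23 to 0.33 for Artn and -0.60 to -0.42 for Nrtn. The number of members higher then ran from 1 to 3 and lower from 0 to 1.

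Gfra4 changed sign, without a call, with spike-in centring (0.16 at A_55_P2039196, 0.11 at A_55_P1984118 and 0.15 at A_55_P1984119) and with the stromal covariate (0.00495 at A_55_P2039196). A_55_P1984119 also did so with slide as a block (0.096) and without the 3 tumours (0.10).

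Leaving out MYCN 1 too, which also held muscle markers (4 tumours in all, chosen after seeing the data), gave 0.61 for Gfra3 and 0.32 for Artn, neither called, -0.99 for Nrtn, called lower, and 0.0088 for Gfra4 probe A_55_P1984119, a change of sign. In that fit 1 member was higher and 1 lower, 1 other ligand or modulator, 0 adaptors and 1 turnover gene were higher, 3 adaptors and 2 transcription factors lower, and 1491 of all genes higher and 2003 lower, so 42.7% of calls were higher.

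Spike-in centring, which moved the median of all genes from -0.004 to 0.25, gave 8829 genes higher and 831 lower, so 91.4% of calls were higher against 53.8%. It left 14 adaptors, 3 transcription factors and 4 bud-induced genes higher and 0 turnover genes lower. With scanner-processed signals 0 transcription factors were higher, beside 2781 of all genes. With Cy3 alone 3 transcription factors were higher and 3 adaptors lower, beside 3183 and 2375 of all genes. Scaling left 5 adaptors higher, beside 2866 of all genes. Slide as a block left 4 adaptors higher and 1 other ligand or modulator lower, beside 2477 and 1883 of all genes. The stromal covariate left 4 adaptors higher, 1 other ligand or modulator and 0 transcription factors lower. Of all genes 2319 were then higher and 1736 lower. Without the 3 tumours 1 member, 1 other ligand or modulator and 3 adaptors were higher and 2 adaptors lower. In that fit 2149 of all genes were higher and 1540 lower. Leaving out 1 tumour gave 4 to 7 adaptors higher and 1 to 3 lower, and 1 to 2 other ligands or modulators higher. It gave 3 to 4 turnover genes higher and 1 to 2 transcription factors lower. Of all genes 2357 to 2946 were then higher and 1770 to 2598 lower, both fewest without ALK/MYCN 5. Apart from the settings' own construction, the cause of these changes was not tested.

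Tumours of both groups carry the numbers 1 to 5, but the deviations of same-numbered tumours correlated by 0.34, -0.0206, -0.0811, -0.0909 and -0.0613, so the numbers do not pair them. With the replicate block 2522 genes were higher and 2096 lower, against 3166 and 2722, Gfra3 was at 0.96 (limma adjusted p = 0.0531), 1 other ligand or modulator was higher and 2 adaptors were lower. Centring on the median of the tested genes, added after seeing the data, changed no call of a member. Signals near background limit Artn, Gdnf and Gfra1.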
